A study of Mus musculus with 24 samples.

Results

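The actin and contractile cytoskeleton genes described here are 10 of 21887 protein-coding mouse genes. They are the actin genes Actb, Actg1 and Acta2, the actin-binding smooth muscle genes Tagln and Cnn1, the tropomyosin genes Tpm1 and Tpm2, the myosin light chain gene Myl9, the vinculin gene Vcl and the transcription factor gene Srf. They were chosen by name, partly because earlier results on these data showed a narrower acetylated stretch at Actb and a Tagln peak in Gcn5 null lists alone. Values of null against floxed libraries at these 10 genes are therefore given as a description, without a test.

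Acetylation of histone H3 at lysine 9 (H3K9ac) was measured by ChIP-seq, the sequencing of DNA bound to antibody-captured histones, in embryoid bodies at day 5, the aggregates in which mouse embryonic stem cells begin to differentiate. Clones 4_C2 and 6_C4 were Gcn5-/- (null) and clones 4_1 and 6_1 were Gcn5fx/fx, homozygous for the floxed allele of the acetyltransferase gene Gcn5, all on a C57BL/6 background and with no other agent named. Clones 4_C2 and 4_1 form isolate pair 4, clones 6_C4 and 6_1 form isolate pair 6, and each clone gave 2 H3K9ac libraries, so each genotype had 4 libraries from 2 clones. The other 16 samples, for H3 itself and input DNA, were not analysed here. The fx/fx clones keep Gcn5, and neither the deleted part nor the Cre used is stated in the sources read here. Peak lists do not measure Gcn5 itself, so the genotype labels were not checked. Each H3K9ac library has 1 deposited list of peak positions without heights, so that the presence, position and length of peaks are the measurements.

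Actin is the protein of thin filaments. Actb and Actg1 encode the actins found in nearly all cells, whereas Acta2, Tagln and Cnn1 are used as markers of smooth muscle. Tropomyosin lies along actin filaments, the light chain encoded by Myl9 regulates myosin, and vinculin links filaments to adhesion sites. Srf encodes serum response factor, which binds a sequence called the CArG box in the promoters of many contractile and actin genes, together with myocardin-related cofactors. H3K9ac is found mostly at active promoters, and Gcn5 is one of the enzymes that can place it.

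The lists held 12041 to 18932 peaks in null and 13260 to 20809 in fx/fx libraries. By isolate pair they held 17849 to 20809 peaks in pair 6 and 12041 to 15315 in pair 4, so list length moved with isolate pair. The shortest list was replicate 2 of 4_C2. Among marker genes of other cell types fixed for this description, 3 to 8 of 8 pluripotency genes had a start peak in null and 5 to 8 in fx/fx libraries, and among 8 primitive streak and mesoderm genes 2 to 7 did in null and 5 to 8 in fx/fx libraries. Of 6 neuroectoderm genes, 1 to 5 did in null and 4 to 6 in fx/fx libraries. Endothelial, endodermal and fibroblast genes were at 0 to 3 in either genotype. The part of these differences in the results below was not tested. Of 8 cardiac muscle genes, 2 to 3 had a start peak in null and 1 to 3 in fx/fx libraries. Of 6 skeletal muscle genes, 0 to 1 did in null and 0 in fx/fx libraries. Among the cardiac genes, Myl4 had one in 4 null and 4 fx/fx lists, Ryr2 in 3 and 3, and Nkx2-5 in 2 and 1. Tnnt2, Myh6, Myh7, Myl7 and Tnni3 had none in any list. The skeletal muscle gene Ckm had one in 1 null and 0 fx/fx lists, and Myod1, Myf5, Myog, Tnnt3 and Myh3 had none in any list. In such mixed aggregates, fewer cells with an acetylated gene and less acetylation per cell cannot be told apart.

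A start peak is one that overlaps the 1000 bp on either side of a gene's start, taken from RefSeq's promoter table (GRCm38.p6, the sequence of mm10). For Actb, Tagln and other genes not in that table, both ends of the annotated gene were used. Among genes named below, these others include Myh11, Myocd, Actg2, Pxn, Rac1, Diaph1 and Myod1. At such genes a peak counted as a start peak may lie at either end. The right end is the one with the higher coordinate. The promoters of 6 of the genes are shown because they span those marked in every list and those marked in few or none. Each line holds the 250 bases before the start, 5′ to 3′ on the gene's strand, with CArG boxes in capitals. The searched CArG box is 10 bases long, a CC, a run of A or T in any order, and a GG, and reads the same way on either strand. Only exact matches were counted. Near matches with another base in the run, such as ccctatatgg and ccttgtttgg in Acta2, are not in capitals. Actg1, Srf and Vcl had a start peak in all 8 lists, Myl9 in 5, Cnn1 in 2 and Acta2 in none.
Actg1: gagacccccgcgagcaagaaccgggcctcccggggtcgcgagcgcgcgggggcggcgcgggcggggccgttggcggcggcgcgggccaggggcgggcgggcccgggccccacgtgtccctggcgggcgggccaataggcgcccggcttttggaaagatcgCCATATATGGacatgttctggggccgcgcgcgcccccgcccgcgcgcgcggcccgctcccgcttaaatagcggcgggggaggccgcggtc
Srf: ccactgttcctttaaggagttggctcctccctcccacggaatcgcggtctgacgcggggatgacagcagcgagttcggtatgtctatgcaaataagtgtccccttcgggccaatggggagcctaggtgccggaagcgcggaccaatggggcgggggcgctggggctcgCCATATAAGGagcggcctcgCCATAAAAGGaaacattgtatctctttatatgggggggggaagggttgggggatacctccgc
Vcl: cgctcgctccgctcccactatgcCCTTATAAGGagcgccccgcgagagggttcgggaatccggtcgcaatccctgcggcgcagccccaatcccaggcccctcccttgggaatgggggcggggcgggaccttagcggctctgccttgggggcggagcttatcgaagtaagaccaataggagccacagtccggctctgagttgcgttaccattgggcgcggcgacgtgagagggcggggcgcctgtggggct
Myl9: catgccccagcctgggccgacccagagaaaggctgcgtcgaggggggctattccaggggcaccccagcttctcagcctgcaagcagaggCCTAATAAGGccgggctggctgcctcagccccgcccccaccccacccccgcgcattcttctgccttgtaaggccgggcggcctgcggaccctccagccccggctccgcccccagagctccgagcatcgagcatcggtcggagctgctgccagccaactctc
Cnn1: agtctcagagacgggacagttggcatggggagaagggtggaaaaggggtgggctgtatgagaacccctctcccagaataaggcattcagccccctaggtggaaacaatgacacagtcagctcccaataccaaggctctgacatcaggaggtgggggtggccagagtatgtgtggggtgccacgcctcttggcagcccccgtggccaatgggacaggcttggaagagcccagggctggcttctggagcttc
Acta2: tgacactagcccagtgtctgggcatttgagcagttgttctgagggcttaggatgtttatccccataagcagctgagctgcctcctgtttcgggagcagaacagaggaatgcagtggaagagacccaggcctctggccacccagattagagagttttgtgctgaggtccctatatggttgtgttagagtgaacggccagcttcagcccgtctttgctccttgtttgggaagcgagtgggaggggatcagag

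These windows lie at chr11:120348496-120348745, minus strand (Actg1), chr17:46556163-46556412, minus strand (Srf), chr14:20929148-20929397, plus strand (Vcl), chr2:156775214-156775463, plus strand (Myl9), chr9:22099003-22099252, plus strand (Cnn1) and chr19:34255374-34255623, minus strand (Acta2). The Actg1 window holds CCATATATGG at 90 to 81 bases before the start. Srf, whose own product binds this sequence, holds CCATATAAGG at 82 to 73 and CCATAAAAGG at 62 to 53 bases before its start. Vcl holds CCTTATAAGG at 227 to 218 bases, and Myl9 holds CCTAATAAGG at 161 to 152 bases. Over 21263 promoters of protein-coding genes, 1.39% hold a CArG box in the same 250 bases and 5 promoters (0.0235%) hold 2 or more. Of the 295 promoters with a box, 100 (33.9%) had a start peak in all 8 lists, against 46.1% of all promoters.

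Promoter sequence was read for 8 of the genes, and not for Actb and Tagln. Among these 8, the promoters with a start peak in every list were the CpG-rich ones. The observed over expected ratio of CpG was 1.108 in Actg1, 0.855 in Vcl, 0.788 in Srf and 0.742 in Tpm1, all marked in 8 lists. It was 0.566 in Tpm2 and 0.539 in Myl9, marked in 6 and 5 lists, and 0.231 in Acta2 and 0.141 in Cnn1. Over all promoters, a peak in all 8 lists was found at 87.8% of those with a ratio of 0.8 and above, 72.8% at 0.6 to 0.8, 45.2% at 0.4 to 0.6, 14.2% at 0.2 to 0.4 and 3.1% below 0.2. Among the 8 cytoskeleton genes read, Cnn1, with the lowest ratio, was marked in more lists than Acta2, and nothing particular to these genes was tested. The GC content of these windows ran from 79.2% in Actg1 to 53.6% in Acta2.

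**Figure D1:**
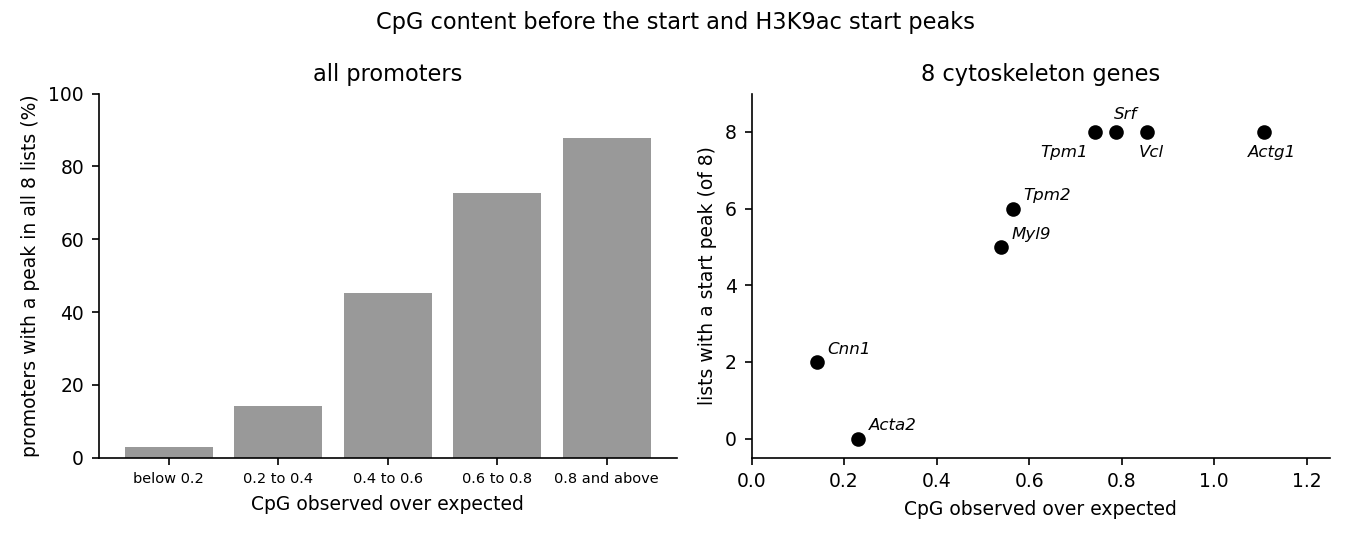
Left, the percentage of promoters with an H3K9ac start peak in all 8 lists, by class of CpG observed over expected in the 250 bases before the start (21263 promoters). Right, the same ratio for 8 cytoskeleton genes against the number of lists with a start peak, where the 4 genes at 0.742 and above were marked in 8 lists and Acta2 and Cnn1, at 0.231 and 0.141, in 0 and 2.

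By start peaks, the 10 genes fell into 5 marked in all 8 lists (Actb, Actg1, Tpm1, Vcl and Srf), 4 marked in some lists (Tagln, Cnn1, Tpm2 and Myl9) and 1 marked in none (Acta2). Over all protein-coding genes, 46.3% had a start peak in all 8 lists, 37.3% in none and 16.5% in 1 to 7. The share of the 10 genes in all lists was near that of all genes. With windows of 500 bp the count in all lists was 4, since the Actb peak of replicate 2 of 4_C2 ended 738 bp inside the right end.

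**Figure D2:**
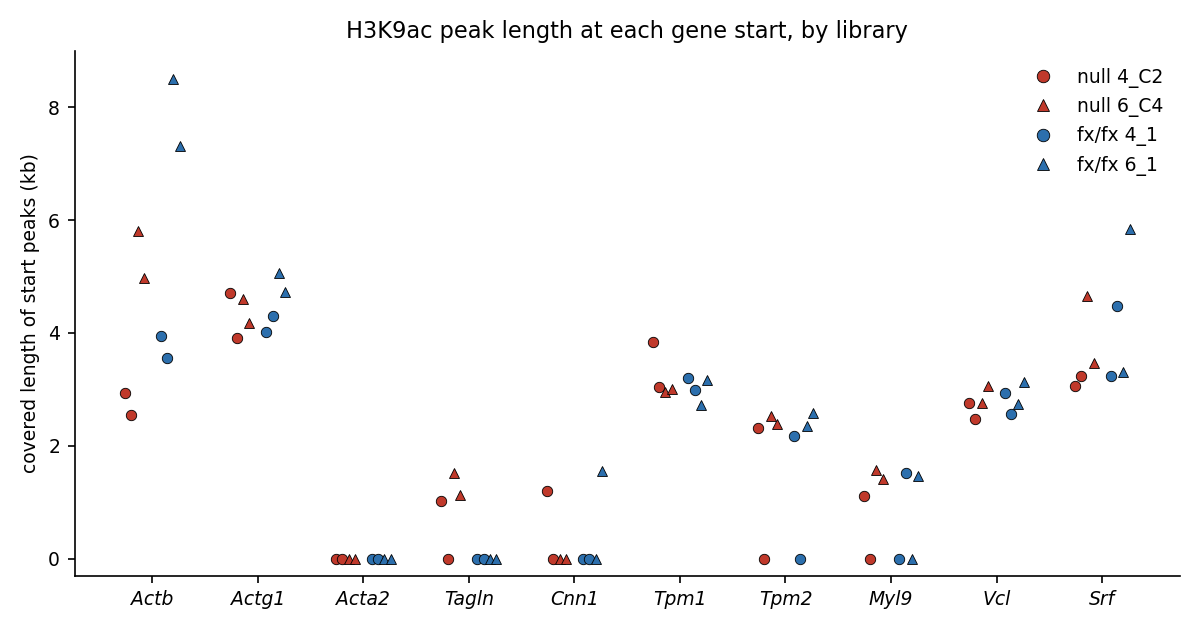
Covered length of H3K9ac start peaks in kb (y axis) at the 10 genes (x axis), 1 point per library, with null libraries in red left of fx/fx libraries in blue, circles for isolate pair 4 and triangles for pair 6. Points at 0 are lists without a start peak. Actb spreads from 2544 to 8492 bp, Actg1 stays between 3905 and 5061 bp, and Acta2 is at 0 in all 8 lists.

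Actb (chr5:142903115-142907976) was covered over 2938 and 2544 bp in 4_C2 and 5800 and 4978 bp in 6_C4, against 3955 and 3564 bp in 4_1 and 8492 and 7319 bp in 6_1. Within each isolate pair both null libraries were below both fx/fx libraries, while the 2 genotypes overlapped across pairs, because the pair 6 null libraries were above the pair 4 fx/fx libraries. Null libraries averaged 4065 ± 1573 bp and fx/fx libraries 5832 ± 2446 bp (SD, n = 4 each). Each library was centred on its median region, since the median region was narrower in null before centring (log2 difference -0.12). The log2 width difference of null minus fx/fx was -0.37 ± 0.09 (SE), with -0.31 in pair 4 and -0.43 in pair 6. Of the 10171 regions present in all 8 lists, 161 (1.58%) had a lower value, and limma called 0 regions (0%) different between genotypes, where 705 had an unadjusted p under 0.05. This contrast was used to choose Actb, so nothing is read from its rank.

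The length at Actb varied at both edges. Measured from the right end into the gene, the covered stretch ended at 3406 and 3281 bp in 4_C2 and 4169 and 4489 bp in 6_C4, against 4192 and 3752 bp in 4_1 and 5862 and 4359 bp in 6_1. Outside the right end, coverage went on for 2619 and 488 bp in 6_C4 and for 2768 and 2959 bp in 6_1, and all 4 libraries of pair 4 stopped inside the gene. In replicate 1 of 6_C4 and of 6_1 this outer part was a separate peak of 1752 and 2653 bp, after a gap of 989 and 139 bp. The outer peak of 6_C4 lay 868 bp from the right end, just within the window.

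The difference between isolate pairs was not used to choose Actb and was tested. The Actb region (chr5:142902114-142910935) covered 6647 ± 1566 bp in pair 6 and 3250 ± 630 bp in pair 4 (SD, n = 4 each), with all 4 pair 6 libraries above all 4 pair 4 libraries. The centred log2 difference of pair 6 minus pair 4 was 0.76 ± 0.09 (SE, limma adjusted p = 0.00262). It was 0.70 between the null clones and 0.82 between the fx/fx clones. Some of the marker sets of other cell types also separated by isolate pair, and others did not. The summed covered length of the 8 pluripotency genes was 33356 to 42025 bp in pair 6 and 10021 to 19158 bp in pair 4, with 7 to 8 of them marked in pair 6 and 3 to 7 in pair 4. That of the 6 endoderm genes was 6676 to 9692 bp in pair 6 and 0 to 3304 bp in pair 4, and that of the 6 neuroectoderm genes 16937 to 19124 bp in pair 6 and 1763 to 14437 bp in pair 4. Cardiac and fibroblast genes also separated. The primitive streak and mesoderm genes overlapped, at 8813 to 13869 bp in pair 6 and 1990 to 12075 bp in pair 4. So did endothelial genes (1886 to 4736 and 979 to 3950 bp) and smooth muscle markers (3167 to 4743 and 1361 to 4240 bp). Skeletal muscle genes were at 0 bp in pair 6 and 0 to 1011 bp in pair 4. The part of these markers in the difference at Actb was not tested. With the widest peaks of each list, as many as the shortest list holds, the Actb difference was 0.76 (limma adjusted p = 0.00339, and 0.000816 to 0.0115 over 14 alternatives). Long peaks such as those at Actb stay in such lists, so this alternative could hardly change the value and does not check it against list length. Of all shared regions, 439 (4.32%) were called wider in pair 6 and 256 (2.52%) narrower. These counts were 2724 and 22 without centring, where the median region was 0.25 wider on the log2 scale in pair 6. Leaving out each library in turn lowered the total of 695 called regions to 293 to 507.

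The genotype difference in width at Actb did not pass a test of whether it differed between isolate pairs (log2 difference of differences -0.12 ± 0.19, SE, limma adjusted p = 0.944). That test called 0 of 10171 regions (0%), and 677 had an unadjusted p under 0.05. Among the genes whose centred width followed Actb most closely over the 8 libraries were Msh6, a mismatch repair gene (Pearson r = 0.968), Naa25 (0.967), Reep3 (0.967) and Bnip1 (0.966). They were among the top 5 of 10208 genes, whose median r was -0.06 and whose 95th percentile was 0.801. These values describe 8 libraries that share clones, and clone differences enter every r.

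**Figure D3:**
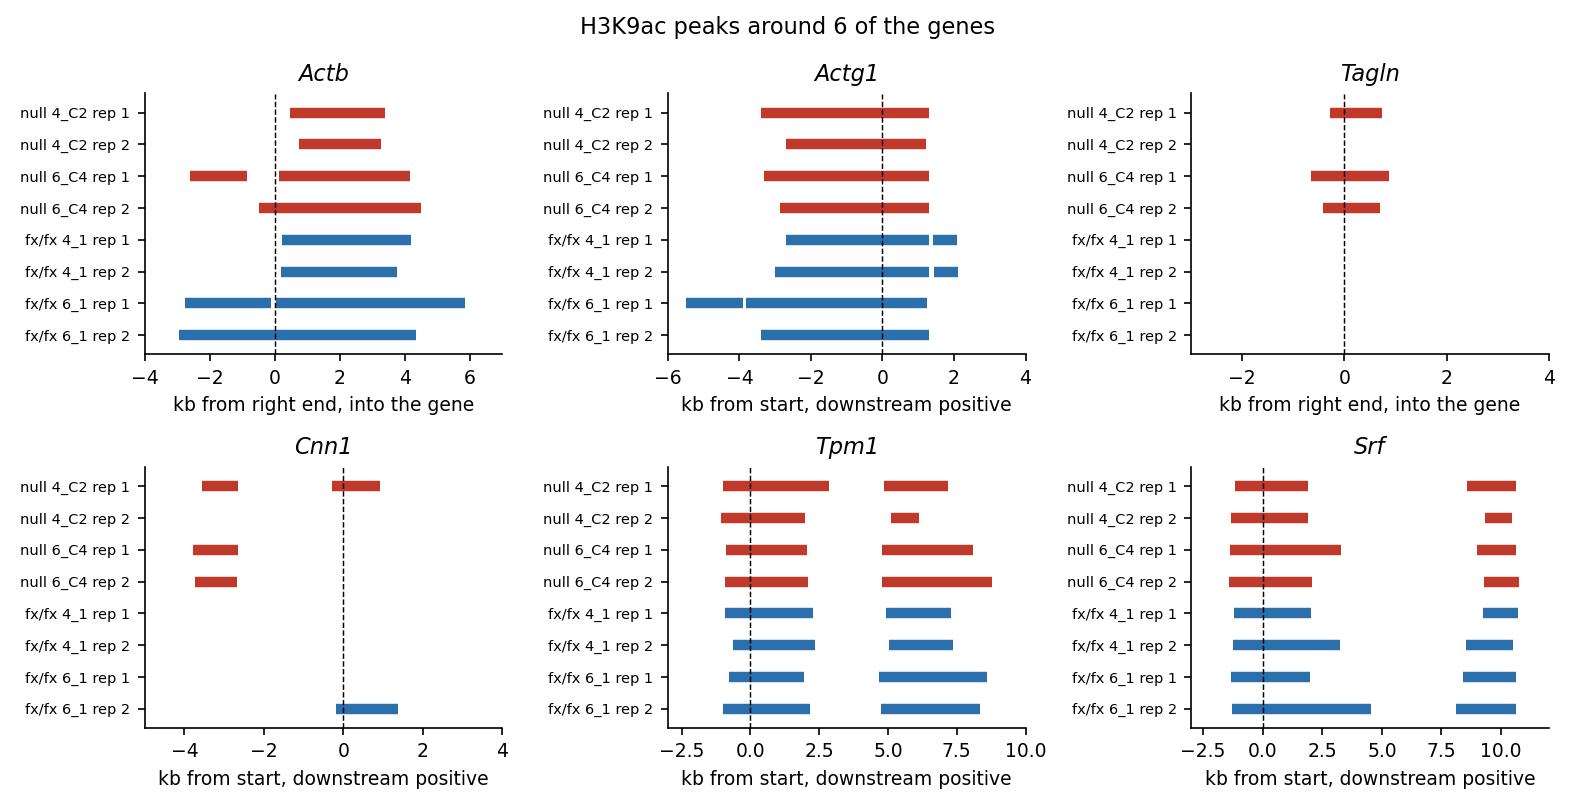
H3K9ac peaks as horizontal bars around 6 of the genes, with 1 row per library, null (red) above fx/fx (blue). The x axis gives kb from the start, positive downstream, or for Actb and Tagln kb from the right end, positive into the gene. Actb coverage extends past the right end in pair 6 alone, the downstream edge of Actg1 sits at 1211 to 1314 bp in every library, and Tagln and the upstream Cnn1 peak appear in the same 3 null libraries.

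Actg1 (chr11:120345687-120348495), the other actin gene of nearly all cells, had a start peak of 4703 and 3905 bp in 4_C2 and 4604 and 4172 bp in 6_C4, against 4013 and 4309 bp in 4_1 and 5061 and 4722 bp in 6_1. The genotypes overlapped. Its downstream edge was the steadiest feature among the genes, 1211 to 1314 bp after the start in all 8 libraries (mean 1283 ± 38 bp, SD, n = 8). The upstream edge lay at 2693 to 3823 bp (mean 3152 ± 398 bp). This upstream stretch overlapped the lncRNA gene 0610009L18Rik, which begins 183 bp upstream of the Actg1 start. The median upstream reach of 3157 bp was above that of 99.0% of 6515 genes with a single start and a peak in all lists, whose median was 919.5 bp, and its downstream reach of 1298 bp was near their median of 1427 bp.

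A second, short peak lay inside Actg1 in both 4_1 libraries, 670 and 694 bp long, and in no other library. It was parted from the start peak by 104 and 129 bp and began 724 and 685 bp from the far end of the gene. The region width at the Actg1 start gave a centred log2 difference of 0.08 ± 0.09 for null minus fx/fx and -0.13 ± 0.09 for pair 6 minus pair 4 (SE, limma adjusted p = 0.397). Without centring these were -0.06 and 0.13, so neither has a fixed sign. Actb and Actg1 thus gave different values in the same libraries, but the difference between the 2 genes was not tested.

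Acta2 (chr19:34240336-34255585), which encodes smooth muscle alpha-actin, had no peak at its start or at either end in any of the 8 lists. The deposited lists hold only called peaks, so acetylation below the calling threshold cannot be seen. Its annotated neighbour on the left is Stambpl1, and no peak lay at the end that Acta2 shares with it.

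Tagln (chr9:45929628-45936058), which encodes the actin-binding protein transgelin, had a peak at its right end of 1024 bp in replicate 1 of 4_C2 and of 1525 and 1121 bp in 6_C4. It had none in replicate 2 of 4_C2 and none in 4_1 or 6_1. The peaks began 290 to 645 bp outside the right end and reached 700 to 879 bp into the gene. A start peak in at least 3 null and 0 fx/fx lists was found at 6 of 21887 genes (0.0274%), and the reverse at 43 (0.196%). Tagln was chosen for this pattern, so the count stands as a description. In lists of equal length, made of the widest peaks, Tagln had a peak in 1 null and 0 fx/fx lists and so left the pattern.

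The set of lists with a Tagln peak was shared by 4 other genes. These were Ramp3, which encodes a receptor accessory protein (mean covered length 1342 bp in those lists), Slc47a2, a transporter gene (1204 bp), 4930523C07Rik (1019 bp) and Ano1, a chloride channel gene (1016 bp). By region, 21 of 26034 merged regions were in exactly these lists. Regions in at least 3 null and 0 fx/fx lists numbered 32 (0.123%), and those of the reverse pattern 88 (0.338%).

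Cnn1 (chr9:22099221-22109221), which encodes the actomyosin inhibitor calponin 1, had a start peak of 1201 bp in replicate 1 of 4_C2 and 1553 bp in replicate 2 of 6_1, and none in the other 6 libraries. Both peaks spanned the start, from 279 and 174 bp before it to 921 and 1378 bp after it. A separate region (chr9:22095478-22096596), 2657 to 3775 bp upstream and so outside the window, was covered over 895 bp in replicate 1 of 4_C2 and over 1118 and 1061 bp in 6_C4. It was absent from replicate 2 of 4_C2 and from all fx/fx lists, and so is one of the 21 regions in the same lists as Tagln. This region was noticed after its values were seen.

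Of 7 smooth muscle marker genes (Myh11, Smtn, Lmod1, Myocd, Acta2, Tagln and Cnn1), 1 to 3 had a start peak in null and 1 to 3 in fx/fx libraries. Summed over these genes, null libraries covered 2071 to 4372 bp and fx/fx libraries 1361 to 4743 bp. Myh11, the smooth muscle myosin heavy chain gene, had a start peak in 0 null and 2 fx/fx lists, and Myocd, which encodes the cofactor myocardin, in 0 null and 1 fx/fx lists. Both genes were read at either gene end, so these peaks need not lie at the start. Smtn, which encodes smoothelin, had one in all 8 lists. Of the 3 lists with a Tagln peak, Lmod1 had a start peak in 1, Cnn1 in 1 and Acta2, Myh11 and Myocd in 0.

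Tpm1 (chr9:67022590-67049672), a tropomyosin gene, had a start peak of 3843 and 3047 bp in 4_C2 and 2948 and 3012 bp in 6_C4, against 3197 and 2996 bp in 4_1 and 2727 and 3164 bp in 6_1. The highest value was that of replicate 1 of 4_C2, and the genotypes overlapped. The centred log2 difference was 0.22 ± 0.08 for null minus fx/fx (SE), a description, and 94.5% of shared regions had a lower value. For pair 6 minus pair 4 it was -0.40 ± 0.08 (SE, limma adjusted p = 0.0215), with 2963 ± 181 bp in pair 6 and 3271 ± 391 bp in pair 4 (SD, n = 4 each). That call ended without centring (log2 difference -0.14, limma adjusted p = 0.301) and without replicate 1 of 4_C2, replicate 1 or 2 of 6_C4 or replicate 1 of 6_1 (limma adjusted p 0.0507 to 0.0731). Over 14 alternatives the adjusted p ran from 0.0103 to 0.301.

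A second Tpm1 region lay inside the gene, 4660 to 8768 bp after the start (chr9:67040445-67044553), and was present in all 8 lists. It covered 2341 and 1051 bp in 4_C2 and 3279 and 3999 bp in 6_C4, against 2360 and 2331 bp in 4_1 and 3940 and 3577 bp in 6_1. All 4 pair 6 libraries were above all 4 pair 4 libraries, averaging 3699 ± 336 bp in pair 6 and 2021 ± 647 bp in pair 4 (SD, n = 4 each). The centred log2 difference of pair 6 minus pair 4 was 0.68 ± 0.19 (SE, limma adjusted p = 0.0633), which did not pass. The inner region was thus longer in pair 6 where the start region was not, but the difference between the 2 regions was not tested.

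Tpm2 (chr4:43513726-43523583), the other tropomyosin gene, had a start peak of 2319 bp in replicate 1 of 4_C2 and 2536 and 2380 bp in 6_C4, against 2183 bp in replicate 1 of 4_1 and 2356 and 2590 bp in 6_1. It was absent from replicate 2 of both pair 4 clones. Where present, the peak was of like length in every library and reached 1425 to 1638 bp upstream.

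Myl9 (chr2:156775408-156781657), which encodes the regulatory light chain of smooth muscle and nonmuscle myosin, had a start peak of 1109 bp in replicate 1 of 4_C2 and 1565 and 1406 bp in 6_C4, against 1518 bp in replicate 2 of 4_1 and 1463 bp in replicate 2 of 6_1. The remaining 3 libraries had none, 1 null and 2 fx/fx. Its presence varied between replicates of 3 of the 4 clones.

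Vcl (chr14:20929383-21033676), the vinculin gene, had start peaks of 2756 and 2474 bp in 4_C2 and 2763 and 3059 bp in 6_C4, against 2939 and 2565 bp in 4_1 and 2744 and 3125 bp in 6_1. The genotypes overlapped. In replicate 2 of each null clone the stretch was split into 2 peaks by a gap of 61 bp in 4_C2 and 105 bp in 6_C4, just before the start. Such splits at genes with a single start and a peak in all lists were found at 4.07% and 2.09% of 6515 genes in those 2 libraries, and at 0.982% to 2.55% in the other 6. The centred log2 difference at Vcl was 0.09 ± 0.08 for null minus fx/fx (SE) and -0.14 ± 0.08 for pair 6 minus pair 4 (SE, limma adjusted p = 0.328), each with the opposite sign without centring.

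Srf (chr17:46546838-46558267) had start peaks of 3062 and 3230 bp in 4_C2 and 4655 and 3474 bp in 6_C4, against 3234 and 4480 bp in 4_1 and 3316 and 5845 bp in 6_1. The variation lay on the downstream side, where the peaks reached 1892 to 4538 bp, while the upstream edge stayed at 1155 to 1417 bp. The longest stretch came from replicate 2 of 6_1 and the shortest from replicate 1 of 4_C2, and replicates of a clone differed as much as the genotypes. The centred log2 difference was -0.07 ± 0.19 for null minus fx/fx (SE) and 0.02 ± 0.19 for pair 6 minus pair 4 (SE, limma adjusted p = 0.964). A further peak lay near its other end in all 8 lists and reached into the neighbouring gene Cul9 in each of them, averaging 1574 ± 398 bp over null libraries and 2063 ± 464 bp over fx/fx ones (SD, n = 4 each).

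**Figure D4:**
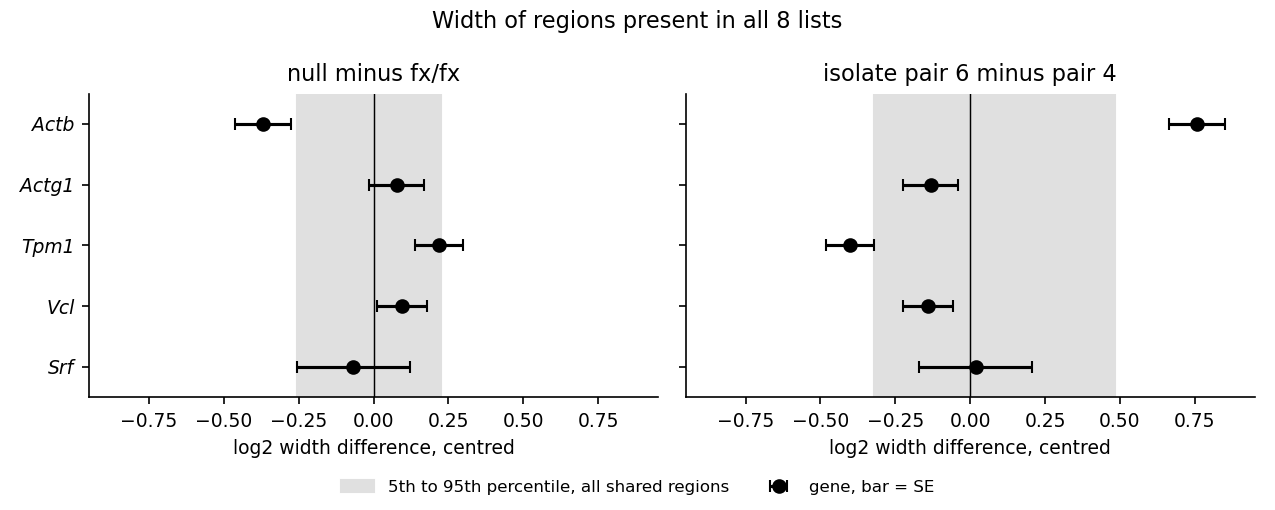
Centred log2 difference in region width (x axis) for the 5 genes with a start region in all 8 lists (y axis), null minus fx/fx on the left and isolate pair 6 minus pair 4 on the right. Points are limma estimates, bars are SE, and the grey band runs from the 5th to the 95th percentile of 10171 shared regions (-0.25 to 0.22 on the left, -0.32 to 0.485 on the right). Actb lies outside the band on both sides, at -0.37 and 0.76, and Tpm1 on the right at -0.40.

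Other genes of the pathway came from 6 lists with 82 genes besides the 10. Of these, 64 (78.0%) had a start peak in all 8 lists, 14 in some and 4 in none, namely Acta1, Actc1, Mylk and Myh14. Over all protein-coding genes these shares were 46.3% in all lists and 37.3% in none. Actin assembly genes were marked in all lists at 22 of 24 genes, and focal adhesion and crosslinking genes at 14 of 15. Among paralogues of the 10 genes 8 of 12 were, among smooth muscle contractile genes 6 of 12, and among Srf partner factors 3 of 7. A start peak was found in more null than fx/fx lists at 4 of the 82 genes and in more fx/fx than null lists at 9. Over all protein-coding genes these patterns were found at 3.13% and 9.89%.

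**Figure D5:**
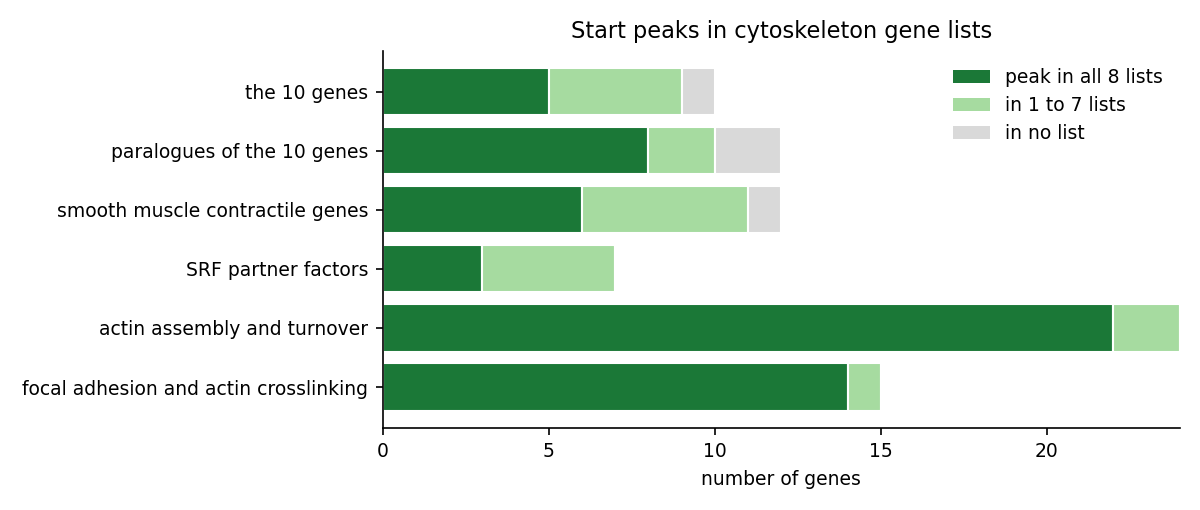
Number of genes (x axis) with a start peak in all 8 lists (dark green), in 1 to 7 lists (light green) and in none (grey), for the 10 genes and 5 of the cytoskeleton lists (y axis). Actin assembly has 22 of 24 genes in dark green, smooth muscle contractile genes 6 of 12 and the 10 genes 5.

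Des, which encodes the muscle intermediate filament protein desmin, had a start peak in 4 null and 2 fx/fx lists, and Gsn, which encodes the filament-severing protein gelsolin, in 2 null and 4 fx/fx lists. Tagln3, a paralogue of Tagln, had one in 2 null and 4 fx/fx lists, and the smooth muscle actin gene Actg2 in 1 null and 0 fx/fx lists. The cofactor genes Elk1 and Elk3, whose products bind with serum response factor, each had one in 3 null and 4 fx/fx lists. So did Tmsb4x, which encodes an actin monomer-binding thymosin, and Synm, which encodes the filament protein synemin. Lmod1, a smooth muscle actin nucleator gene, had one in 1 null and 0 fx/fx lists, and the paxillin gene Pxn in 3 null and 2 fx/fx lists. None of these differences exceeded 2 lists. By isolate pair, Des and Gsn each had a start peak in 4 pair 6 and 2 pair 4 lists. Elk1, Elk3, Tmsb4x and Synm were each at 4 and 3, Pxn at 3 and 2, Actg2 and Lmod1 at 1 and 0, and Tagln3 at 3 and 3.

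Width between genotypes was tested at 64 of these genes, and limma called 0 of them, with 10 (15.6%) at an unadjusted p under 0.05, against 6.93% of all shared regions. Their median centred log2 difference was 0.05 against 0.02 over all shared regions, and 22 of 64 were below 0 against 45.1% of all shared regions. The largest difference, named after its value was seen, was at Ppp1r14a, which encodes an inhibitor of myosin phosphatase (0.41 ± 0.14, SE, limma adjusted p = 0.714). Higher values in null libraries were also found at Capza2, which encodes a subunit of the filament-capping protein (0.37 ± 0.14), and Rac1 (0.37 ± 0.10). Lower values in null libraries were found at Cap1, an actin-turnover gene (-0.34 ± 0.11), and Rhoa (-0.30 ± 0.09). Rac1 and Rhoa encode small GTPases that direct actin assembly. Capza2, Rac1, Cap1 and Rhoa had the same limma adjusted p of 0.714.

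Between isolate pairs, 5 of the 64 genes were called wider in pair 6 and 1 narrower, against 4.32% and 2.52% of all shared regions, and they are named after their values were seen. The widest difference was at Diaph1, which encodes a formin that elongates filaments, at 4621 ± 524 bp in pair 6 and 1804 ± 216 bp in pair 4 (SD, n = 4 each, log2 difference 1.09 ± 0.11, SE, limma adjusted p = 0.00101). Actn4, the gene of a crosslinking alpha-actinin, covered 7793 ± 1363 bp in pair 6 and 3512 ± 764 bp in pair 4 (log2 difference 0.90 ± 0.13, limma adjusted p = 0.0046). Capzb, which encodes the other subunit of the capping protein, gave 0.56 ± 0.10, Tpm3 0.55 ± 0.12 and Rhoa 0.39 ± 0.09 (limma adjusted p = 0.0137, 0.0243 and 0.0375). Myh10, a nonmuscle myosin heavy chain gene, was the narrower one (-0.41 ± 0.09, limma adjusted p = 0.025). Diaph1, Actn4 and Capzb were called without each library in turn, when 3 to 5 genes were wider and 0 or 1 narrower. Rhoa, Tpm3 and Myh10 each lost the call without some libraries, among them either replicate of 6_C4. Capzb was not called in the lists of equal length. Without centring 13 were wider and 0 narrower.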

How the data were processed

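Per the submitters' processing notes, Bowtie 1.1.2 and MACS 1.4.2 were used with mm10. The authors deposited 1 peak list per H3K9ac library, with chromosome, start and end in base pairs and no score. Calling threshold, control library and sequencing depth were not given in the sources used here, and a deeper library can give more and longer peaks. Coordinates are on mm10, counted from 1.

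From the 8 lists, peaks sharing 1 bp or more were joined to give 26034 regions. Region width, the base pairs covered in a library, was taken as log2, centred on each library's median and fitted with limma 3.58.1 (R 4.3.3), using the 10171 regions found in all lists, with genotype and isolate pair as terms and Benjamini-Hochberg adjustment at 0.05 over all regions. A gene's region was the longest at its start. Starts came from RefSeq's promoter table for 17492 genes, and both gene ends were used for 4395. All 138 entries of the fixed lists matched. The comparison of isolate pairs was tried on simulated widths, and the other contrasts were not. It called 82 of 100 regions changed 1.5-fold, 100 of 100 changed 2-fold and 10 of 9971 unchanged ones. The simulated libraries were independent, with 1 spread for all regions and no clone effect. The simulation therefore does not check the test against likeness between libraries of a clone. Python 3.11.15 with pandas 2.3.3 was used otherwise.

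The 10 genes, the lists and the tests were chosen with earlier results of these data known. List genes were named by their difference in lists with a peak, then in width, up to 4 per list, and some results are not reported here. The design text does not tie replicates to separate cultures, so p-values measure the spread between these libraries, which may be technical. Alternatives were other windows, overlaps, merging, centring, pseudocounts, equal-length lists, model terms and leaving out each library.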

Additional observations from a re-analysis of the deposited data

Results flagged for a closer look

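In groups of 4 libraries, at each gene the gap of the highest or lowest covered length to its neighbour was compared with the group's range and with Dixon's critical value at the 95% level. Of 17 groups examined, 5 were past it. Chance gives about 1 in 20 for measured lengths. That rate does not apply to the groups at Cnn1, Tpm2, Tagln and Myl9 that hold lists without a peak, counted as 0. At Cnn1 and Tpm2 such lists set the ratio. At Cnn1 the ratio was 1.0 in null libraries, for replicate 1 of 4_C2, and 1.0 in fx/fx libraries, for replicate 2 of 6_1, each the only library of its genotype with a start peak. At Tpm1 it was 0.889 in null libraries, where replicate 1 of 4_C2 was highest with 3843 bp. At Tpm2 it reached 0.914 among null libraries and 0.843 among fx/fx ones, for replicate 2 of 4_C2 and of 4_1, which lacked the peak.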

How the results depend on the processing

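Regions called different in width between null and fx/fx libraries numbered 0 in the reported fit and 18 when regions in 4 or more lists entered with a pseudocount of 200 bp, 17 of them narrower in null. Leaving out each library gave 0 to 1, with 1 without replicate 2 of 4_C2 or either replicate of 6_C4. Between isolate pairs, 695 regions were called, against 2746 without centring, 1476 with regions in 4 or more lists, and 293 to 507 without each library. The test of genotype by isolate pair called 0, against 330 with regions in 4 or more lists, and 0 to 1 without each library, the 1 being without replicate 1 of 4_C2. The cause of these differences was not tested. With replicate number as a block, 0, 629 and 0 regions were called, and between isolate pairs the call at Rhoa was lost and Pdlim7 was called, with no other change among the 10 genes and the 6 lists. Replicate 1 minus replicate 2 correlated over shared regions at 0.109 between 4_C2 and 4_1 and at 0.0624 between 6_C4 and 6_1. Between clones of different isolate pairs these correlations ran from -0.0258 to 0.0267. In each clone the list of replicate 2 was the shorter one. Whether libraries with the same replicate number were handled together was not tested.

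The number of genes with a start peak in all lists was 5 in every alternative except windows of 500 bp, with 4. Tagln, with its short peaks, was in 1 null and 0 fx/fx of the equal-length lists. The Actb difference of null minus fx/fx ran from -0.51 to -0.30 over 15 alternatives, and that of Tpm1 from 0.08 to 0.26. Those of Actg1, Vcl and Srf had either sign. Peak lists without heights or depth limit all values, since a missing peak is one below an unknown threshold.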
